A study of Mus musculus with 7 samples.

Results

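The genes described here are named as the replication-type histone genes of the mouse, most of which encode histones made in bulk while a cell copies its DNA. They were chosen by name: every protein-coding gene of the deposited annotation whose symbol starts with Hist1h, Hist2h, Hist3h or Hist4h. There were 67 such genes among 21700 protein-coding genes, in an annotation of 32286 genes. The digit after Hist names the genomic cluster and the letters after it name the histone class, so position by cluster and class was read from the name and is no finding.

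The series profiled stromal cells of the mouse intestine by single-cell RNA sequencing (10x Genomics 3' v3 chemistry). The cells were sorted for the GFP reporter of Rspo3, which encodes a ligand that strengthens Wnt signalling, and for the absence of Epcam and CD45, which mark epithelial and blood cells. All 7 samples came from Rspo3-GFP transgenic mice on a C57Bl6 background aged 8 to 12 weeks. They comprised 2 samples of untreated small intestine, 2 of small intestine from unirradiated controls, 2 of small intestine from mice given 12 Gy of irradiation and 1 of untreated colon. Whether the samples within a group are separate animals is not given in the labels. Expression values were not analysed here, so neither levels, depth per sample, cell types nor an effect of irradiation is reported, and the tissue label could not be set beside its markers. Every number describes gene models or reference sequences, and no test between groups of samples was run.

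Histones H2A, H2B, H3 and H4 form the core around which DNA is wound, and H1 binds the DNA that enters and leaves that core. Most messenger RNAs of replication-type histones carry no poly(A) tail. Their 3' end is cut a short way after a small hairpin, the histone stem-loop, by a machinery that includes the stem-loop binding protein SLBP and the U7 small nuclear RNP, and the messages are made in S phase and destroyed when it ends. Libraries primed on poly(A) capture such messages poorly, whereas the forms that end at a downstream poly(A) site are captured. The labels name poly(A) RNA as the molecule in these samples.

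The hairpin was searched as a pattern of 16 bases on the sense strand of the 3' UTR, with G at positions 1 and 2, C at 5, T at 6, 7 and 9, A at 11, G at 12, C at 15 and 16, and any base elsewhere. The following GENCODE sequences (build GRCm38) show the most frequent form in each class and then 1 example of each remaining form, with the hairpin in capitals and up to 5 flanking bases in lower case.
Hist1h1d (H1): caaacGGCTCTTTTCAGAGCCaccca
Hist3h2a (H2A): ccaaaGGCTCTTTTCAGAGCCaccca
Hist3h2ba (H2B): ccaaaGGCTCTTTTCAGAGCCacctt
Hist1h3d (H3): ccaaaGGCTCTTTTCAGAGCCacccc
Hist1h4m (H4): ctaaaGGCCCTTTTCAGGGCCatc
Hist1h2bk (H2B): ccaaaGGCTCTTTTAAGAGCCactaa
Hist2h2ac (H2A): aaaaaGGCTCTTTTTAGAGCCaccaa
Hist1h3g (H3): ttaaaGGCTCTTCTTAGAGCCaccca
Hist1h4i (H4): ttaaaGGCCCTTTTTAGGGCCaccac
Hist1h4j (H4): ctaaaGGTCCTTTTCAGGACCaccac
Hist1h4a (H4): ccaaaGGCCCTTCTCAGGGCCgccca
The example of H3 lies at chr13:23576239-23576264 on the plus strand and that of Hist2h2ac at chr3:96220413-96220438 on the minus strand, both in the 3' UTR of the only exon.

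The pattern was present in the 3' UTR of 45 of the 54 members that have an annotated 3' UTR (83.3%, 95% Wilson interval 71.3 to 91, counting error only). Among other protein-coding genes 0.195% held it, or 35 of 17993. The 45 hairpins took 8 forms, and in each of the 45 the 6 bases on the left could pair with the 6 on the right around a loop of 4. The letters fixed by the pattern already set 4 of these 6 pairs, so only the pairs at free positions could have failed. The form shown for Hist1h1d was carried by 25 members: 3 of class H1, 10 of H2A, 7 of H2B, 5 of H3 and 0 of H4. The form shown for Hist1h2bk was carried by 6 members: Hist1h1t, Hist1h2bk, Hist1h2bb, Hist1h3c, Hist1h3e and Hist1h3f.

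The H4 genes stood apart in the sequence of the stem. The 12 H4 hairpins took 4 of the 8 forms, the 33 hairpins of the other classes took the other 4, and no form occurred in both sets. The form of Hist1h4m was shared by 7 H4 genes, that of Hist1h4i by Hist1h4i and Hist2h4, that of Hist1h4j by Hist1h4j and Hist1h4b, and that of Hist1h4a by itself alone. The hairpins began 21 to 58 bases after the stop codon, with a median of 31. The closest was that of Hist2h2ac at 21 bases, and the farthest were those of Hist2h2aa1 and Hist2h2aa2 at 58 each and Hist4h4 at 54. All 45 therefore lay within 100 bases of the stop codon, where 4 of the 35 matches in other genes lay. The median of those 35 was 687 bases from the stop codon and 12 of them had 6 of 6 pairs, where the pattern alone fixes 4. With both properties stood 3 genes: H2afx, the H2A variant of DNA damage signalling, at 46 bases, H2bfm at 32 bases and Gm9507 at 53 bases.

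Hist1 held 54 of the 67 members on chromosome 13 (chr13:21715763-23934851): 6 genes of class H1, 13 of H2A, 15 of H2B, 9 of H3 and 11 of H4. Hist2 held 10 on chromosome 3 (chr3:96219865-96270132), with 4 of H2A, 2 of H2B, 3 of H3 and 1 of H4. Hist3 held the H2B gene Hist3h2ba and the H2A gene Hist3h2a on chromosome 11 (chr11:58948920-58956830), and Hist4 was Hist4h4 alone on chromosome 6 (chr6:136801553-136804415). Every H1 gene of the set lay in Hist1. By class the set comprised 6 genes of H1, 18 of H2A, 18 of H2B, 12 of H3 and 13 of H4.

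Where neighbouring members more than 100 kb apart were taken as separate runs, Hist1 fell into 4. The first ran from Hist1h2bl to Hist1h2br and held 18 members in 122 kb. The second, Hist1h2ah to Hist1h2bj, held 5 in 8.51 kb. The third, Hist1h4h to Hist1h1a, was the most populous, with 29 members in 233 kb and 5 of the 6 H1 genes. The last was the pair Hist1h2ba and Hist1h2aa, 1.08 kb in all, which encode histones known from the testis. Between the runs lay 198 kb with 3 other protein-coding genes, 1490 kb with 39 and 169 kb with 5. Within the runs the only other protein-coding genes were Hfe, an iron regulator, in the third run and Trim17 in that of Hist3.

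**Figure D1:**
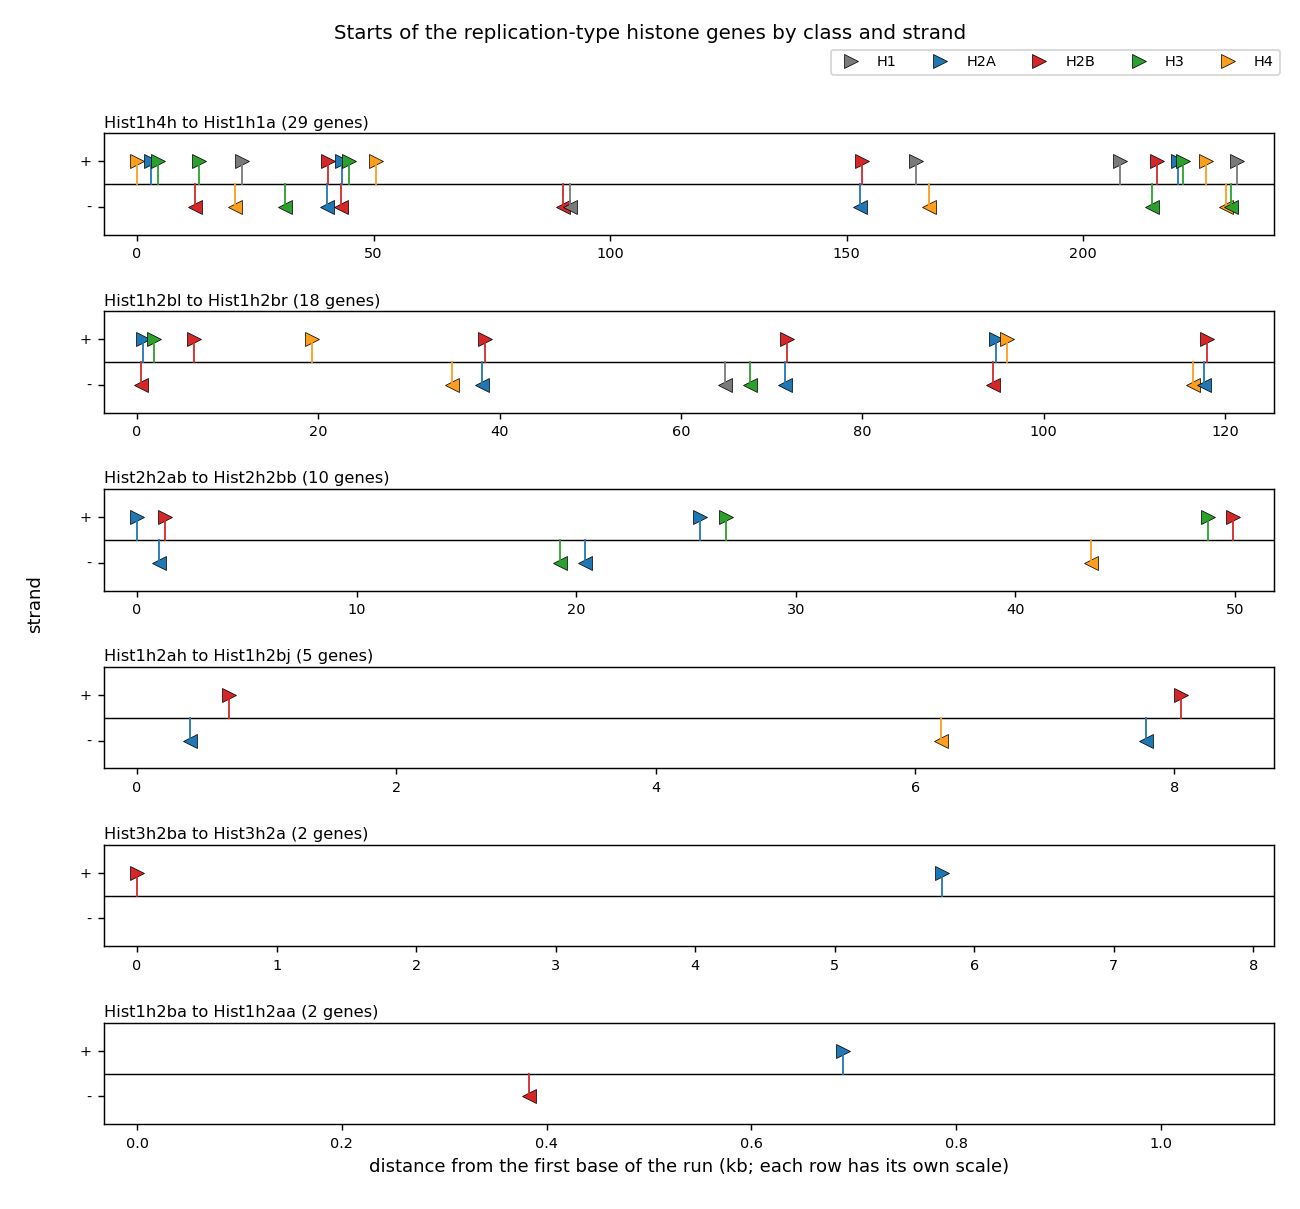
Starts of the members in the 6 runs that hold more than 1, by distance from the first base of the run in kb (horizontal axis, its own scale in each row) and by strand (triangles above the line, plus; below, minus), coloured by class. Blue H2A and red H2B triangles stand back to back at nearly the same place in 12 pairs.

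Strand was mixed: 30 of 67 members lay on the minus strand (44.8%, interval 33.5 to 56.6), beside 50.1% of other protein-coding genes. By class the minus-strand genes numbered 2 of 6 in H1, 9 of 18 in H2A, 6 of 18 in H2B, 5 of 12 in H3 and 8 of 13 in H4. The genes were packed closely. The gap from a member to the nearest protein-coding gene had a median of 621 bases, against 4844 bases for other genes, and was at most 1000 bases for 49 of 67 members (73.1%) against 31.6% of others. It was shortest for H2A (median 268 bases) and H2B (273.5 bases), longer for H3 (739 bases) and H1 (1094 bases) and longest for H4 (1613 bases). Hist1h4j had the widest gap, 12496 bases.

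The order of classes along the chromosome followed a few arrangements. Among 59 adjacent pairs of members within runs, 18 were head to head, 16 tail to tail and 25 in the same direction. The neighbours Hist1h4c and Hist1h1c of the third Hist1 run were not among the pairs counted. An H2A beside an H2B was head to head in 12 of 14 cases. An H2A beside an H3 pointed the same way in 8 of 8 cases, with a median of 827 bases between the genes, and an H2A beside an H4 did so in 5 of 5, with a median of 1097 bases. Neighbouring H4 genes were tail to tail in 3 of 3 cases. In some places the order was mirrored, and 2 of them are given as examples. In Hist2 the order was Hist2h3c2, Hist2h2aa2, then Hist2h2aa1, Hist2h3c1, with the H3-H2A distance 621 bases on the left and 602 on the right. In the first Hist1 run it was Hist1h2bq, Hist1h2ao, Hist1h4m, then Hist1h4n, Hist1h2ap, Hist1h2br, with 801 bases between H2A and H4 on the left and 829 on the right.

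A divergent pair was defined as a minus-strand gene followed by a plus-strand gene with 1 to 1000 bases between their starts and no other protein-coding start between them. There were 12 such pairs of an H2A with an H2B, which took in 24 of the 36 H2A and H2B members (66.7%, interval 50.3 to 79.8). In any divergent pair stood 27 of the 67 members (40.3%), against 6.49% of other protein-coding genes. The H2A was the minus-strand gene in 8 of the 12 and the H2B in 4. The distances covered a narrow range, 175 to 305 bases with a median of 258.5, where the 701 divergent pairs of other genes had a median of 119 and quartiles of 64 and 230. In Hist1 the closest pair was Hist1h2ae with Hist1h2bg (175 bases, chr13:23571221-23571395) and the widest Hist1h2ba with Hist1h2aa (305 bases, chr13:23934157-23934461). Hist2 had a single pair, Hist2h2ac with Hist2h2be, 238 bases apart (chr3:96220881-96221118).

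The exact start matters to these distances. In 3 of the 12 pairs, Hist1h2bl with Hist1h2ai, Hist1h2ak with Hist1h2bn and Hist1h2ba with Hist1h2aa, both gene models begin at the start codon, so the distance between starts equals that between start codons. With RefSeq gene starts in place of the deposited ones the same 12 pairs were found, at 163 to 280 bases with a median of 209.5. The pair Hist1h2ak with Hist1h2bn moved most, from 295 bases to 163.

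**Figure D2:**
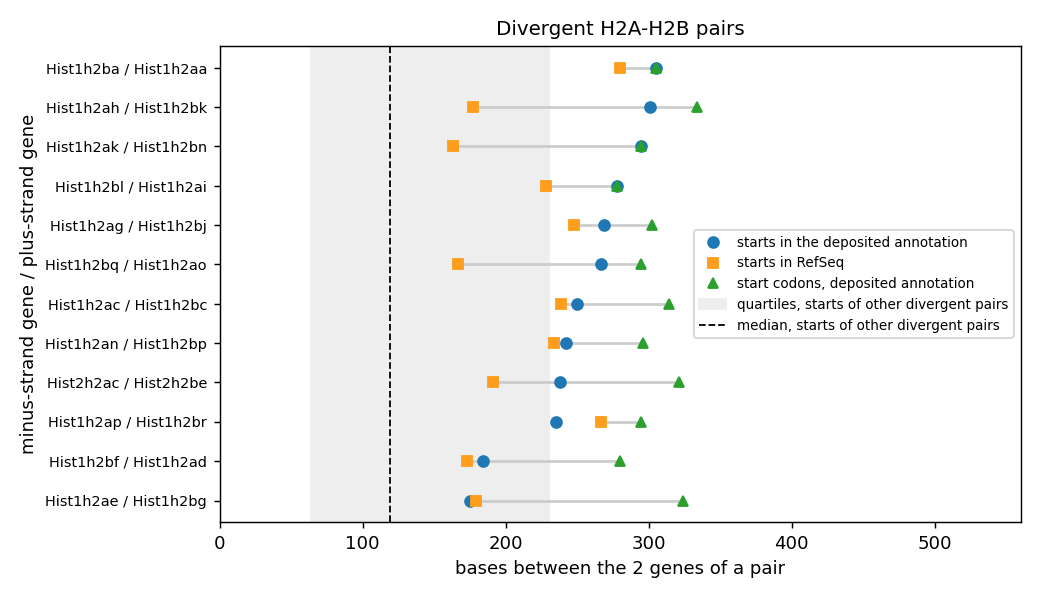
Bases between the genes of each of the 12 divergent H2A-H2B pairs, measured between deposited starts (circles), RefSeq starts (squares) and start codons (triangles). The shaded band and dashed line give the quartiles (64 and 230) and median (119) of the 701 divergent pairs of other genes. Deposited starts lie at 175 to 305 bases.

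No such partner was found for 6 H2A and 6 H2B genes: Hist3h2a, Hist1h2af, Hist1h2ab, Hist2h2ab, Hist2h2aa2, Hist2h2aa1, Hist3h2ba, Hist1h2bm, Hist1h2bh, Hist1h2be, Hist1h2bb and Hist2h2bb. Of these, Hist1h2bh was divergent from an H3 gene, Hist1h3f, at 659 bases, and Hist2h2ab from Bola1, a mitochondrial iron-sulfur factor, at 155 bases. Between start codons the distances were 1132 bases for Hist1h2bh and 22639 for Hist2h2ab, so the latter pair rests on the annotated starts. Another 2 faced a gene that the deposited annotation does not hold. GENCODE M21, an earlier release on the same build, has 70 genes named by the same pattern, and the 3 that the deposited annotation lacks are typed there as pseudogenes. Hist1h2aj (chr13:21721457-21721808, minus strand) starts 235 bases from Hist1h2bm, and Hist3h2bb-ps (chr11:58954048-58954512, minus strand) starts 172 bases from Hist3h2a. With these pseudogenes as partners the count of pairs was 14.

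Nearly every member was intronless. The longest transcript, the model with the most exonic bases, had 1 exon in 62 of 67 members (92.5%, interval 83.7 to 96.8), against 8.21% of other protein-coding genes. All 13 members of Hist2, Hist3 and Hist4 were intronless, as were all members of H1, H2A, H3 and H4, whereas 13 of 18 H2B genes were. A single transcript was annotated for 62 members (92.5%), beside 19.1% of other genes. The median member was 539 exonic bases long against 2909 for other genes. Coding length, without the stop codon, was 309 bases in every H4 gene, 384 to 390 in H2A, 378 to 414 in H2B, 408 to 543 in H3 and 627 to 669 in H1. The longest H3 was Hist2h3c1 at 543 coding bases, with 408 in each of the other H3 genes, and the longest H2B was Hist1h2bp at 414.

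The 5 members with introns were the H2B genes Hist1h2bp, Hist1h2bq, Hist1h2br, Hist1h2be and Hist1h2bc. In 3 of them, Hist1h2bq, Hist1h2br and Hist1h2bc, the first intron of the longest model lay 0 to 9 bases after the stop codon, ahead of where the hairpin stands in other members. Hist1h2bp had 2 exons, and its intron of 1132 bases lay in the coding sequence, after 377 of 414 coding bases. Hist1h2bq and Hist1h2br had 3 exons each on their longest model, typed as subject to nonsense-mediated decay, and carried introns of 1149 and 1154 bases directly after the stop codon. Each also had a shorter coding model with an intron of 1667 bases in the coding sequence, after 377 coding bases, as in Hist1h2bp. Hist1h2bc had an intron of 7554 bases that began 9 bases after the stop codon. None of the longest models of these 4 genes held the hairpin pattern in its 3' UTR. An unspliced transcript of Hist1h2bp, with a 3' UTR of 81 bases, did hold it, whereas the unspliced transcripts of Hist1h2bq and Hist1h2br ended at the stop codon. Hist1h2be differed: its intron of 34949 bases lay in the 5' UTR, and its 3' UTR of 1906 bases held the hairpin 29 bases after the stop codon.

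Both untranslated regions were short. The 5' UTR had a median of 38 bases over 56 members against 182 bases over 17951 other genes. By class the medians were 56.5 bases in H1, 31.5 in H2A, 35 in H2B, 53 in H3 and 34 in H4. The model began at the start codon in 11 of 67 members (16.4%) against 4.87% of other genes with a complete start. The longest 5' UTR of each class belonged to Hist1h1d (1828 bases), Hist1h2ae (112), Hist1h2be (219), Hist1h3f (433) and Hist1h4a (73). RefSeq places the start of Hist1h1d inside this stretch of 1828 bases, so that length rests on the deposited start. The shortest were those of Hist1h1c (41), Hist1h2ao (2), Hist1h2bf (6), Hist1h3e (4) and Hist1h4d (4).

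The 3' UTR had a median of 152 bases over 54 members, with quartiles of 78.5 and 816.25, against a median of 1074 bases over 18205 other genes. The remaining 13 members (19.4% of 67) ended at the stop codon, as did 4% of other genes with a complete end. A 3' UTR of 1 to 120 bases, with or without the hairpin, was annotated in 26 of 54 members (48.1%) against 6.68% of others. The classes differed in level. H2A had the lowest median at 89 bases over 13 genes, followed by H2B at 206.5 over 14, H4 at 265 over 12, H3 at 265.5 over 10 and H1 at 880 over 5. The ranges of the classes overlapped.

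The extremes show how different the models of a class can be. In H1 the 3' UTR ran from 48 bases in Hist1h1a to 4931 in Hist1h1d, and in H2A from 1 base in Hist1h2af to 2058 in Hist1h2ac. In H2B it ran from 66 bases in Hist1h2bj and Hist1h2bb to 2192 in Hist2h2be, in H3 from 37 bases in Hist2h3b to 1213 in Hist2h3c1 and in H4 from 52 bases in Hist1h4m to 2515 in Hist4h4. Both members of Hist3 had 3' UTRs longer than the median of all members: 213 bases in Hist3h2ba and 1700 in Hist3h2a. In Hist2 the values beside those already given were 94 bases in Hist2h2ac, 109 in Hist2h2aa1 and in Hist2h2aa2, 423 in Hist2h3c2 and 1311 in Hist2h4, while Hist2h2ab and Hist2h2bb ended at the stop codon.

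**Figure D3:**
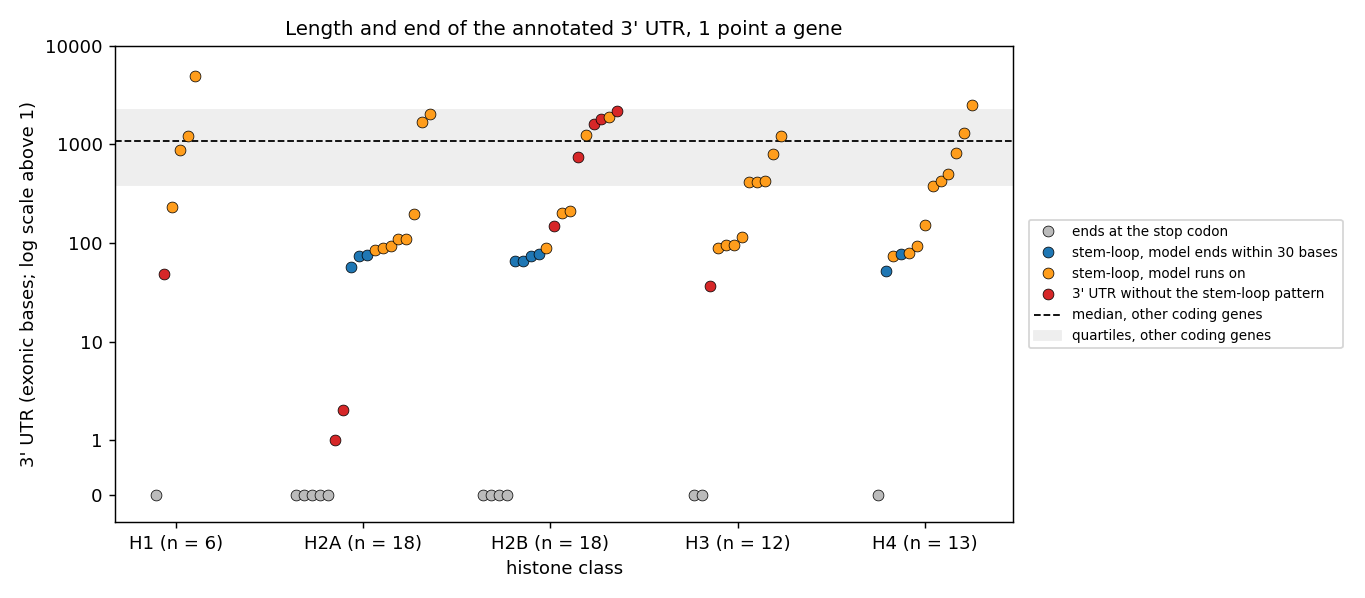
Annotated 3' UTR in exonic bases (vertical axis, log scale above 1) of each of the 67 members by class, coloured by how the model ends. The dashed line and grey band give the median (1074) and quartiles of other coding genes. The lowest class is H2A (median 89), and the 13 models that end at the stop codon lie at 0.

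Read together with the hairpin, the 3' ends fell into 4 kinds. In 13 members the model ended at the stop codon, before any hairpin. In 9 the model held the hairpin and ended at most 30 bases after it: 3 bases after it in Hist1h4m and Hist1h2ap, 11 in Hist1h2ab, and 23 to 30 in Hist1h2ag, Hist1h2bb, Hist1h2bj, Hist1h4b, Hist1h2bf and Hist1h2bk. Processed histone messages are known to end a few bases after the hairpin, so the limit of 30 bases sorts models and marks no processing site. Just outside it lay Hist1h2ao and Hist1h4n, at 31 bases each. None of these 9 was an H1 or H3 gene, and none belonged to Hist2, Hist3 or Hist4. In 36 the model held the hairpin and ran on beyond 30 bases, by up to 4884 bases in Hist1h1d. In the last 9 there was a 3' UTR without the pattern.

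Those 9 comprised the 4 spliced H2B genes above and 5 intronless genes. The 3' UTRs of Hist1h2af and Hist1h2ah, at 1 and 2 bases, were too short to hold the 16-base pattern. Hist1h1a had 48 bases and Hist2h3b 37. Hist2h2be had 2192 bases without a match, also where 1 of the fixed letters was allowed to differ, a looser search that 4.92% of other genes matched. Absence from these windows says only that the letters searched are not in them.

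A poly(A) signal, AATAAA or ATTAAA in the last 50 bases of the longest transcript, stood in 16 of 67 members (23.9%, interval 15.3 to 35.3) against 69.5% of other protein-coding genes. It was found in 13 of the 36 models that ran on past the hairpin, in 0 of the 9 that ended at it, in 0 of the 13 that ended at the stop codon and in 3 of the 9 without the pattern. A stop-codon end leaves only coding sequence in that window. In the 9 that ended at the hairpin the window holds the whole hairpin, so little of it lies downstream. The 12 genes with a poly(A) signal on chromosomes 11 and 13 were Hist3h2ba, Hist3h2a, Hist1h4j, Hist1h2bp, Hist1h2br, Hist1h4i, Hist1h4h, Hist1h2ae, Hist1h2be, Hist1h1t, Hist1h1c and Hist1h4a. By class the signal was in 2 of 6 H1 genes, 2 of 18 H2A, 5 of 18 H2B, 1 of 12 H3 and 6 of 13 H4. Outside Hist1 it stood in 3 of 10 members of Hist2 (Hist2h2be, Hist2h3c1 and Hist2h4), in both of Hist3 and in Hist4h4.

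**Figure D4:**
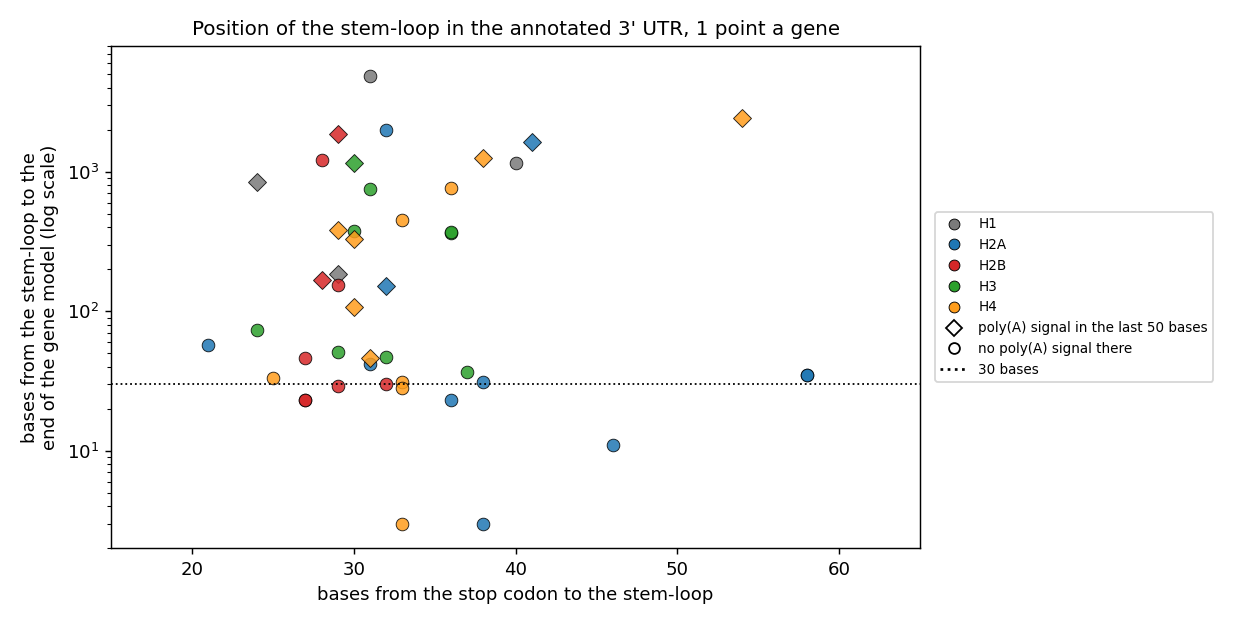
Bases from the stop codon to the hairpin (horizontal axis) and from the hairpin to the end of the gene model (vertical axis, log scale) in the 45 members with the pattern, coloured by class. The hairpin sits 21 to 58 bases after the stop codon whatever the length of the model. Diamonds, the 13 models with a poly(A) signal in their last 50 bases, all lie above the dotted line at 30 bases. In models on or below that line those 50 bases include the hairpin itself.

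Upstream sequence was read from RefSeq windows (GRCm38.p6) of 300 bases, from 250 before to 50 after each gene start. All 67 members were matched to RefSeq, and 62 had a window, 63 windows in all since Hist1h2be had 2. The windows were searched for TATAAA on the sense strand and for CCAAT and ATTTGCAT, the octamer known from H2B promoters, on both strands. A match is a string of letters and not a measured binding site.

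CCAAT was in 54 of 63 windows (85.7%) against 37.3% of the 32788 windows of other genes. Every window of H1, H2A, H2B and H3 held it, 51 in all, whereas 3 of 12 H4 windows did, those of Hist1h4d, Hist1h4c and Hist1h4a. The windows of a divergent pair overlap, so partners can hold the same CCAAT sites and the 51 windows are not all separate. TATAAA was in 30 of 63 (47.6%) against 8.24%. It began 40 to 20 bases before the start, where a TATA box is known to sit, in 12 of 63 (19%, interval 11.2 to 30.4) against 1.96% of other windows. These 12 comprised 4 of H1, 4 of H2A, 1 of H2B, 2 of H3 and 1 of H4. The H1 matches are shown because 4 of the 6 H1 genes carry them at nearly the same distance, 28, 26, 27 and 33 bases before the start in the order printed. These starts are those of RefSeq. In Hist1h1d the match lies inside the 5' UTR of the deposited model, which starts further upstream.
Hist1h1b: agcaccggcttaTATAAAccaggagcctga
Hist1h1d: agcttctctctaTATAAAcccagagcctgc
Hist1h1e: agctccgccctaTATAAAcgggcgggcgca
Hist1h1a: acagcactgctcTATAAAtactccgtgcag

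The octamer was in 14 of 63 windows (22.2%) against 1.7% of other windows. It was found in 7 of 18 windows of H2A and 7 of 17 of H2B and in none of the 28 windows of H1, H3 and H4. Because the windows of a divergent pair overlap, those 14 windows held 11 different sites. Hist1h2ah and Hist1h2bk illustrate a site seen from both genes (chr13:22035780-22035809), 155 bases before the start of the H2A and 30 before that of the H2B. Hist1h2bm, the H2B gene whose facing H2A is a pseudogene in M21, carried it 25 bases before its start. The capitals mark the octamer, which in the H2A reads as its reverse complement.
Hist1h2ah: tagaacttcgtATGCAAATaaagtgaaatg
Hist1h2bk: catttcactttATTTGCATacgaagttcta
Hist1h2bm: ctctcgtctctATTTGCATaacagcgtgta

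Many members of H2A, H2B, H3 and H4 shared sequence near the 3' end, where 3' libraries are read, with genes at other loci. No H1 gene did. Each 90-base word of the last 500 exonic bases was looked up in the sense transcripts of genes that do not overlap the member. The same-strand overlaps of Hist1h1e with Hist1h2be and of Hist2h2bb with Gm42743, described below, were thus not counted. In 26 of 67 members (38.8%, interval 28 to 50.8) 50% or more of the words also stood in another gene, against 4.37% of other protein-coding genes. At least 1 shared word was present in 46 members (68.7%), against 9.56% of others. By class 11 of 18 H2A, 6 of 18 H2B, 6 of 12 H3, 3 of 13 H4 and 0 of 6 H1 genes reached 50%. With overlapping genes left out, no word was shared in 21 of the 67 members, the 6 H1 genes and Hist2h2bb among them. Of the 26, 11 shared words only with other members, 15 shared them with at least 1 gene that M21 has and the deposited annotation lacks, and 11 shared them with at least 1 deposited gene that is no member. None of the 26 shared a word with a member of another class.

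Every word was shared in 3 genes: Hist2h2aa1, Hist2h2aa2 and Hist1h2bq. The first 2 are the mirrored H2A genes of Hist2, each with a 3' UTR of 109 bases. Hist1h2bq shared its words with Hist1h2br alone, the other spliced H2B at the end of the first run. Hist1h3h followed among H3 genes with 93.2% and Hist1h4m among H4 genes with 88.5%. Length of the 3' UTR moved with sharing: 22 of the 39 members with a 3' UTR of at most 120 bases or none reached 50%, and 4 of the 28 with a longer one did. The windows of the first kind consist mostly of coding sequence, and the part that length plays in the sharing was not tested.

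**Figure D5:**
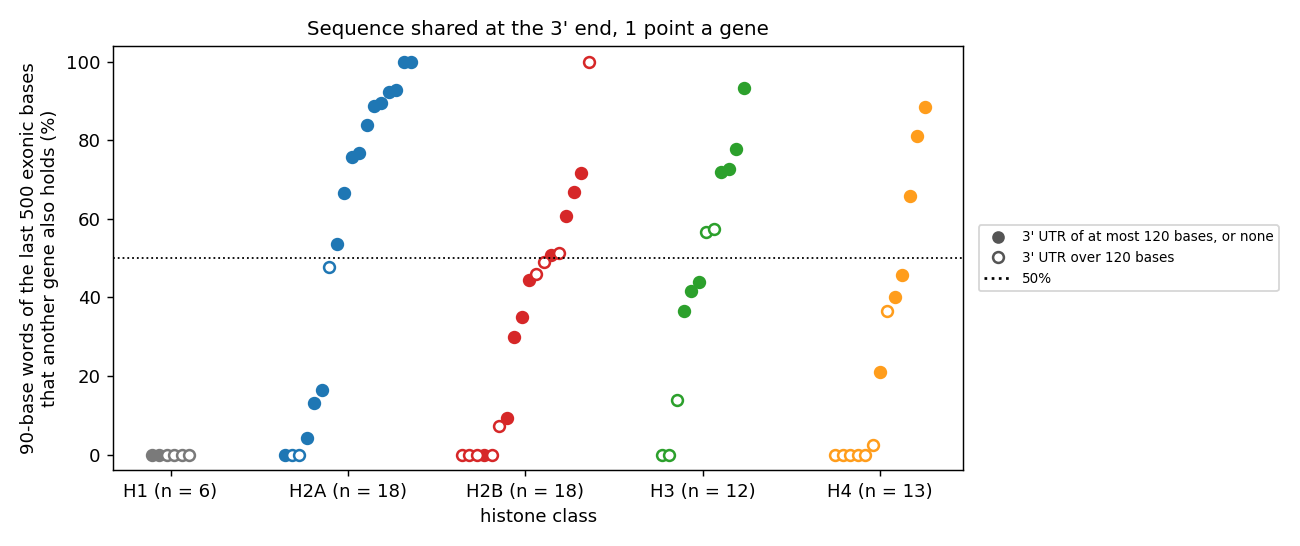
Share of 90-base words in the last 500 exonic bases that another gene also holds (vertical axis, percent) for each of the 67 members by class. Filled points have a 3' UTR of at most 120 bases or none, open points a longer one, and the dotted line marks 50%. H1 genes lie at 0, and 11 of 18 H2A genes lie above the line. Genes that overlap the member were not counted.

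Overlap between gene models on the same strand was rare. In 2 of 67 members (2.99%) the last 500 exonic bases overlapped an exon of another gene of that strand, against 0.975% of other protein-coding genes. Hist1h1e shared 496 bases with exons of Hist1h2be: 209 with the first exon of its longest coding model and 450 with an unspliced model typed as lncRNA, the bases in both counted once in the sum. Hist2h2bb shared 226 bases with Gm42743, a long non-coding RNA gene. Counting either strand, 7 members overlapped another gene (10.4%), against 8.33% of others, and 5 of the 7 lay in Hist2: Hist2h2ab, Hist2h2aa2, Hist2h2aa1, Hist2h3b and Hist2h2bb. Hist1h4b overlapped 4930558J22Rik on the opposite strand.

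Histone genes outside these names were mixed at the 3' end. Of 18 symbols for linker variants, H2A variants, H3.3 and centromeric H3, 17 were found. The longest models of H2afy and Cenpa were retained-intron transcripts without coding sequence, so 15 genes had a coding model. Of the 15, 9 had 1 exon, 10 had a poly(A) signal and 12 had a 3' UTR, with a median of 945 bases. Some resembled members: H2afb1, H2afb2 and H2afb3 ended at the stop codon without a poly(A) signal, and Hils1 and H1fnt, linker histones of sperm cells, had 3' UTRs of 63 and 84 bases. The hairpin was present in 1 of the 12, H2afx, whose 3' UTR of 884 bases also ends with a poly(A) signal. H2bfm, named above for its hairpin, was not on the list. H2afz, H3f3a and H3f3b, which encode replacement histones made also outside S phase, had 5, 4 and 6 exons and no hairpin.

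Of 20 symbols for genes that make, process or degrade histone messages, 19 were found. The longest models of 4 of them, Slbp, Cdk2, Ice2 and Cstf2, were retained-intron transcripts without coding sequence and say nothing of the 3' UTR. Among the other 15, Npat included, 0 had 1 exon, 11 had a poly(A) signal, 0 had the hairpin and the median 3' UTR was 958 bases.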

How the data were processed

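The file used was the gene annotation that the authors deposited, whose values are 1-based coordinates in bases (per the file headers, GENCODE M23 for GRCm38, Ensembl 98), with 5 hand-added records. The submitters' processing notes name Cell Ranger 6.0.1, Seurat 4.0.3 and R 4.1.0; read counting settings are not given in the sources used here. Expression values were not analysed here, so there were no groups to test and no depth to report.

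Each gene was represented by its transcript with the most exonic bases. UTRs were exonic bases outside the coding sequence and stop codon, for models with complete ends. Sequences came from GENCODE M21 transcripts with the same identifier, version and length (67 of 67 members, 21397 protein-coding genes) and from RefSeq promoters. Words in genes whose locus overlaps the member were not counted. Protein identity within a class was not analysed here. Intervals are 95% Wilson intervals. Functions were tested on simulated data: all 200 gene models and 50 planted divergent pairs were recovered. Python 3.11.15, NumPy 2.4.6, SciPy 1.17.1, pandas 2.3.3 and matplotlib 3.10.9 were used.

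Members and gene lists were chosen with earlier results of these data known. Named genes were those with introns, extreme UTRs, extreme or missing partners, a place in Hist2 to Hist4 or at the ends of runs, a missing hairpin, up to 12 with a poly(A) signal, and overlaps. Added after their values were seen: 3' UTRs of 1 to 120 bases, model ends within 30 bases, the 100 kb run gap, the place of TATAAA, the genes without the gene name pattern that hold the hairpin, and the genes with the most shared words.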

Additional observations from a re-analysis of the deposited data

How the results depend on the processing

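The 13 values given for all members were recomputed under 45 alternatives in all. In 34 a share stayed within its 95% Wilson interval, a median within its 95% order-statistic interval or a count within 1.5 times, and in 11 it did not. Some of the 34 could not have moved. Leaving out predicted or pseudogene members removed none, and leaving out olfactory receptors changed only the other genes. A pair limit of 500 bases lay above the widest pair, at 305 bases. The intervals of the medians were 32 to 51 bases for the 5' UTR, 93 to 421 for the 3' UTR and 301 to 810 for the gap to the nearest gene. The share of intronless members was 97% with the shortest coding transcript and 100% without the Hist1 cluster. The median 3' UTR was 423 bases without Hist1, from 11 genes, and 94 bases where the 13 members without a 3' UTR counted as 0. The distance to the nearest protein-coding gene had a median of 1141 bases between starts in place of gaps. Overlap at the 3' end was 10.4% on either strand. The hairpin share was 46.3% for the most frequent form alone, and with 1 mismatch the share stayed at 83.3% while that of other genes was 4.92% in place of 0.195%. The share of members with repeated words was 52.2% with 50-base words and 68.7% where any word counted. TATAAA stood in 66.7% of windows when shortened to TATAA and in 19% at 40 to 20 bases before the start, and the octamer in 50.8% with 1 mismatch, beside 18.5% of other windows. The RefSeq starts, the pseudogene partners (14 pairs) and the place of TATAAA were alternatives chosen after seeing the data. No paired analysis was possible because the results come from gene models and not from samples, and leaving out replicates did not apply for the same reason. Gene models depend on the transcripts that annotators had, M21 sequences can differ from M23 models in genes left unmatched, and copies absent from M21 were not searched.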
